A study of Mus musculus with 16 samples.

Results

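Branched-chain amino acids (BCAAs) are leucine, isoleucine and valine, and 10 genes of the pathway that degrades them were followed in mouse hearts under pressure overload. The members were taken by name from the 55573 gene rows of the count table, and cover the first transamination step (Bcat2), the branched-chain α-keto acid dehydrogenase complex (Bckdha, Bckdhb, Dbt and Dld), its kinase and phosphatase (Bckdk and Ppm1k), and 3 enzymes further down the leucine and valine branches (Ivd, Mccc1 and Hibadh). All 10 were found, each as 1 row, and all 10 were among the 16857 genes kept by the filter on low counts.

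In this pathway a mitochondrial transaminase first turns each amino acid into its keto acid, and the dehydrogenase complex then removes a carboxyl group in the step that commits the carbon to oxidation. Phosphorylation by BCKDK switches the complex off, and removal of the phosphate by PPM1K (also called PP2Cm) switches it on. The heart oxidises branched-chain keto acids in its mitochondria, and lower expression of these genes with accumulation of the keto acids is a known feature of failing hearts.

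RNA was taken from the apex of 16 hearts of male mice, 4 in each of 4 groups, and sequenced as poly(A)-selected single-end reads of 50 bases. Wild-type pups had been injected under the skin on postnatal day 1 with AAV9 virus in which the cardiomyocyte-specific chicken cardiac troponin T promoter (cTNT) drove either GFP or the long noncoding RNA Cardinal. The mice then had transverse aortic constriction (TAC), which narrows the aorta and overloads the left ventricle, or a sham operation, and hearts were taken 4 weeks after surgery. Crossing virus and surgery gave the 4 groups. Each carried a virus, the controls included, and neither strain nor age at surgery was given in the labels. Each heart was taken as 1 mouse, as the labels number them within a group.

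Libraries held between 16441997 and 21904589 counted reads (median 21723766), of which 30.3% to 34.0% fell on mitochondrially encoded genes. The members had between 525 and 7908 reads in a library, so that counting error alone was at most 4.36% of a value. Cardinal, listed as Gm12295, was at 3.42 to 5.93 CPM in AAV9-GFP sham hearts and 26.2 to 40.03 CPM in AAV9-Cardinal sham hearts. It was at 3.59 to 7.24 CPM in AAV9-GFP TAC hearts and 18.3 to 93.9 CPM in AAV9-Cardinal TAC hearts, so the virus labels held in all 16 libraries. CPM are counts relative to library size after TMM scaling. One AAV9-Cardinal TAC heart, replicate 1, stood apart from its group: it had 93.9 CPM of Cardinal against 18.3 to 20.6 CPM in the other 3, and 115 CPM of the fibroblast gene Postn against 38.2 to 51.2 CPM. It was also the lowest of its 4 hearts for 8 of the 10 members. AAV9-GFP TAC replicate 3 was the lowest of its group for 9 of the 10 members and had the most Postn of that group, 222 CPM against 134 to 161 CPM. Counts of called members and of further pathway enzymes are given both ways where a reported count changed when either heart was left out.

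All 10 members fell in AAV9-GFP TAC hearts compared with AAV9-GFP sham hearts, though scaled to cardiomyocyte marker genes 6 of 10 fell and Dld was at a log2 fold change of 0.02. The test was edgeR's quasi-likelihood test with Benjamini-Hochberg adjustment over all genes tested, where 8.92% of all genes were called lower and 17.4% were called in either direction. Without AAV9-GFP TAC replicate 3 all 10 members were still called lower, where 5.97% of all genes were called lower and 11.5% in either direction. The log2 fold changes ran from -0.86 for Ppm1k to -0.21 for Dld, with a median of -0.48 against 0.01 for all genes. For each member the 4 AAV9-GFP TAC hearts all lay below the 4 AAV9-GFP sham hearts, a pattern seen in 10.2% of all genes. The 7 cardiomyocyte markers summed to 39901 to 43460 CPM in those sham hearts and 31431 to 37946 CPM in those TAC hearts, and what part this had in the members' levels was not tested beyond the other scaling. With the Cardinal virus 0 of 10 members passed the same test for TAC against sham, and the difference between the responses did not pass for any member.

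**Figure D1:**
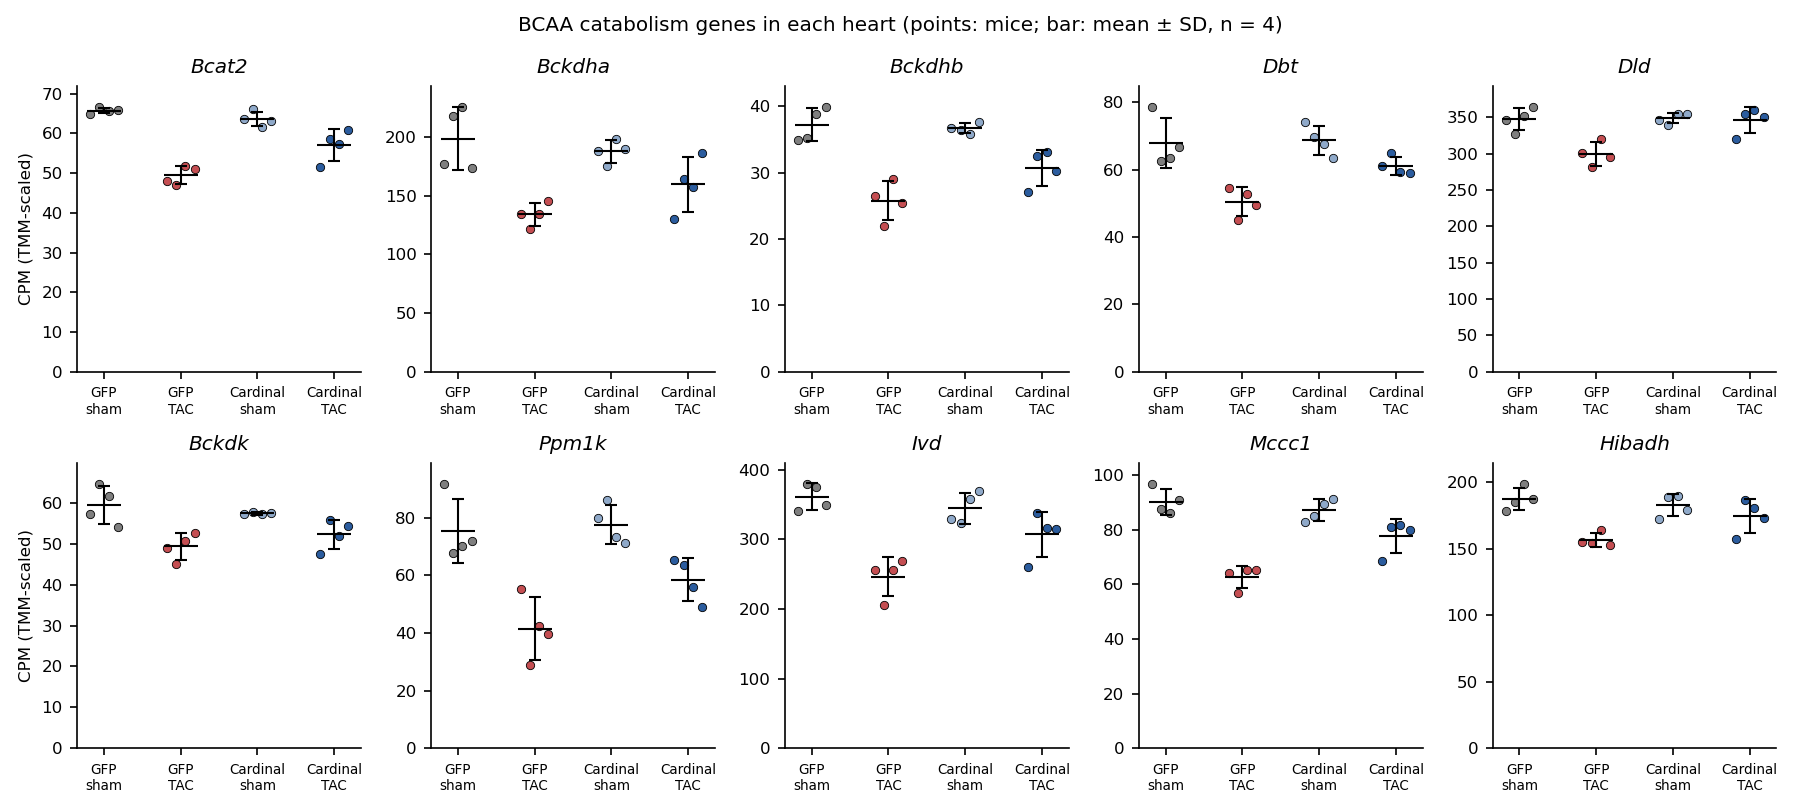
Level of each of the 10 genes in CPM (vertical axes, from 0) in the 16 hearts, with 1 point for each mouse and the bar at the group mean ± SD (n = 4). For every gene the 4 AAV9-GFP TAC points lie below the 4 AAV9-GFP sham points, and the AAV9-Cardinal TAC points overlap those of AAV9-Cardinal sham for 5 of the 10 genes.

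Bcat2 (ENSMUSG00000030826, GRCm38 chr7:45570153-45589711, plus strand) encodes the mitochondrial transaminase that opens the pathway. It was at 64.9, 66.6, 65.6 and 65.8 CPM in AAV9-GFP sham hearts and at 48.1, 47.1, 51.9 and 51.0 CPM in AAV9-GFP TAC hearts. The sham hearts lay within a narrow band, well above the TAC hearts, and the gene fell by a log2 fold change of -0.41 (SE 0.05, adjusted p = 9.07e-05). In AAV9-Cardinal hearts it was at 63.6, 66.1, 61.6 and 63.2 CPM after sham and 51.5, 58.7, 57.4 and 60.8 CPM after TAC. These groups did not overlap either, but the log2 fold change of -0.16 (SE 0.05, adjusted p = 0.0803) missed the threshold of 0.05. Of its exon bases, 15.95% are shared with 0610005C13Rik on the opposite strand, which had at most 0.817 CPM.

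The catalytic core of the dehydrogenase complex is built from a decarboxylase of α and β subunits, Bckdha (ENSMUSG00000060376, chr7:25629946-25658981, minus strand) and Bckdhb (ENSMUSG00000032263, chr9:83925145-84124240, plus strand), around a transacylase, Dbt (ENSMUSG00000000340, chr3:116513070-116549981, plus strand). Bckdha was at 177, 218, 225 and 174 CPM in AAV9-GFP sham and 135, 121, 134 and 145 CPM in AAV9-GFP TAC hearts. Its sham hearts formed a wide group (mean 199 ± 27.0 CPM, SD, n = 4), yet the lowest of them was above every TAC heart. The log2 fold change was -0.57 (SE 0.10, adjusted p = 0.00175). In AAV9-Cardinal hearts Bckdha was at 188, 175, 198 and 189.8 CPM after sham and 130.2, 164, 158 and 187 CPM after TAC, where the groups overlapped through 1 TAC heart, with a log2 fold change of -0.23 (SE 0.10, adjusted p = 0.201). B3gnt8 on the opposite strand covers 61.7% of the exon bases of Bckdha. Whether counting used strand is not given in the sources used here, so the level of Bckdha is uncertain to that extent, while B3gnt8 itself was listed at 1.09 to 2.28 CPM.

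Bckdhb, the β subunit, was at 35.0, 35.2, 38.9 and 39.9 CPM in AAV9-GFP sham hearts and 26.5, 22.03, 29.1 and 25.5 CPM in AAV9-GFP TAC hearts, which were all lower. Its log2 fold change was -0.53 (SE 0.08, adjusted p = 4.45e-04), close to that of its partner subunit. After Cardinal virus Bckdhb was at 36.7, 36.5, 35.9 and 37.7 CPM in sham and 27.1, 32.5, 33.2 and 30.2 CPM in TAC hearts, again with no overlap. That log2 fold change, -0.25 (SE 0.08), had the smallest adjusted p of the 10 members in this comparison, 0.0752. With AAV9-GFP TAC replicate 3 left out of the shared fit, Bckdhb was the 1 member called, where 5.96% of all genes were, and it was also the 1 member that DESeq2 called, where 8.12% of all genes were.

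Dbt carries the acyl group between the active sites of the complex. It was at 78.6, 62.7, 63.6 and 66.9 CPM in AAV9-GFP sham and 54.7, 45.0, 52.8 and 49.6 CPM in AAV9-GFP TAC hearts, with no overlap and a log2 fold change of -0.43 (SE 0.08, adjusted p = 0.00150). In AAV9-Cardinal hearts the values were 74.1, 69.6, 67.7 and 63.6 CPM after sham and 61.1, 65.1, 59.4 and 58.9 CPM after TAC, which overlapped, with a log2 fold change of -0.17 (SE 0.08, adjusted p = 0.207).

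Dld (ENSMUSG00000020664, chr12:31331277-31351453, minus strand) encodes dihydrolipoamide dehydrogenase, which serves the pyruvate and 2-oxoglutarate dehydrogenase complexes as well. It was at 347, 328, 351 and 364 CPM in AAV9-GFP sham and 301, 281, 319.9 and 296 CPM in AAV9-GFP TAC hearts, and at 347, 339.5, 354 and 355 CPM in AAV9-Cardinal sham and 320.1, 355, 359 and 349.9 CPM in AAV9-Cardinal TAC hearts. The AAV9-GFP TAC hearts were all below their shams, whereas the AAV9-Cardinal groups lay on top of each other. The log2 fold change was -0.21 (SE 0.05, adjusted p = 0.00684) with AAV9-GFP, the smallest of the set, and -0.01 (SE 0.05, adjusted p = 0.935) with AAV9-Cardinal. Neither direction held under every scaling: scaled to cardiomyocyte marker genes the values were 0.02 and 0.01, and with library totals alone the AAV9-Cardinal value was 0.02.

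The kinase and the phosphatase were both called lower with TAC in AAV9-GFP hearts, although Bckdk was at -0.03 when scaled to cardiomyocyte markers and was then not called. Bckdk (ENSMUSG00000030802, chr7:127904082-127910221, plus strand) was at 57.3, 64.7, 61.6 and 54.1 CPM in AAV9-GFP sham and 49.0, 45.0, 50.7 and 52.6 CPM in AAV9-GFP TAC hearts. These groups were separated only narrowly, and the log2 fold change was -0.27 (SE 0.06, adjusted p = 0.00922). In AAV9-Cardinal hearts it was at 57.2, 57.7, 57.2 and 57.6 CPM after sham and 47.5, 55.7, 51.8 and 54.2 CPM after TAC, with a log2 fold change of -0.13 (SE 0.06, adjusted p = 0.234). Those sham hearts were nearly identical (SD 0.278 CPM, n = 4), and every TAC heart was below them.

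Ppm1k (ENSMUSG00000037826, chr6:57506502-57535468, minus strand) showed the largest fall of the 10. It was at 91.8, 67.9, 70.1 and 71.8 CPM in AAV9-GFP sham hearts and 55.2, 28.9, 42.3 and 39.8 CPM in AAV9-GFP TAC hearts. The highest TAC heart, replicate 1, was still below the lowest sham heart, and the mean went from 75.4 ± 11.1 to 41.6 ± 10.8 CPM (SD, n = 4). The log2 fold change was -0.86 (SE 0.16, adjusted p = 0.00162), with a 95% confidence interval of -1.19 to -0.53. In AAV9-Cardinal hearts it was at 80.0, 86.1, 73.2 and 71.2 CPM after sham and 65.3, 63.4, 56.0 and 49.1 CPM after TAC. Here too the groups were apart, and the log2 fold change was -0.41 (SE 0.15, adjusted p = 0.130). In the fit of only the 8 AAV9-Cardinal mice, Ppm1k was the 1 member called lower (adjusted p = 0.0428 by edgeR), where 5.54% of all genes were called.

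**Figure D2:**
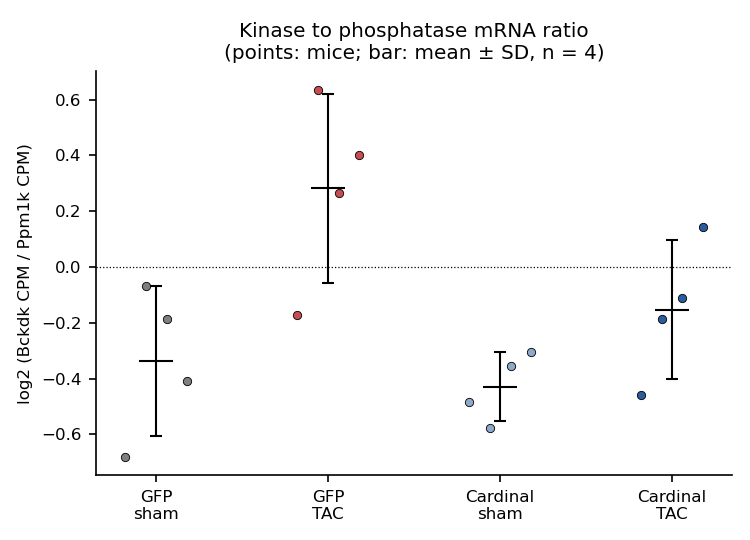
Log2 ratio of Bckdk to Ppm1k CPM (vertical axis) in the 16 hearts, with 1 point for each mouse and the bar at the group mean ± SD (n = 4). Of the 4 AAV9-GFP TAC points 3 are above 0, and all AAV9-GFP sham and AAV9-Cardinal sham points are below 0.

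The log2 ratio of Bckdk to Ppm1k sets the kinase against its opposing phosphatase within each heart, and library scaling nearly cancels in it. It was -0.68, -0.07, -0.19 and -0.41 in AAV9-GFP sham hearts and -0.17, 0.64, 0.26 and 0.40 in AAV9-GFP TAC hearts. The groups overlapped through TAC replicate 1, and the difference of 0.62 gave p = 0.0571 in an exact two-sided permutation test over 70 labelings, whose smallest possible p is 0.0286. In AAV9-Cardinal hearts it was -0.48, -0.58, -0.35 and -0.30 after sham and -0.46, -0.19, -0.11 and 0.14 after TAC, a difference of 0.28 (exact permutation p = 0.0857). Between the TAC groups the AAV9-Cardinal hearts were lower by 0.44 on average (difference -0.44, exact permutation p = 0.0857), and between the sham groups the difference was -0.09 (exact permutation p = 0.571). The change in the TAC response between viruses was -0.34 (permutation of virus labels within surgery, 4900 labelings, exact p = 0.254). Adjusted over these 5 comparisons, p was 0.143 for the TAC responses and for the difference between the TAC groups, 0.318 for the difference in response and 0.571 for the sham groups, so no shift of the ratio passed. With replicate 1 of the TAC group left out, the difference was 0.77 with AAV9-GFP and 0.38 with AAV9-Cardinal. Each had an unadjusted exact permutation p of 0.0286 by the size of the difference (35 labelings), the smallest they can give. That p was 0.0571 when the smaller tail was doubled. In each virus group replicate 1 was the only TAC heart that overlapped its shams. Leaving it out therefore separated the groups by that choice, and the low p is no support. Of the 8 fits with a mouse left out, 1 was under 0.05 by size in each of these comparisons. Counting by size was chosen after seeing the data.

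To show the promoter sequence just upstream of each of this pair, the 250 bases before the RefSeq start are printed for both (GRCm38.p6, read 5′ to 3′ on the gene's strand, chr7:127903823-127904072 on the plus strand for Bckdk and chr6:57535488-57535737 on the minus strand for Ppm1k), with capitals marking matches to the motifs named after them.
Bckdk: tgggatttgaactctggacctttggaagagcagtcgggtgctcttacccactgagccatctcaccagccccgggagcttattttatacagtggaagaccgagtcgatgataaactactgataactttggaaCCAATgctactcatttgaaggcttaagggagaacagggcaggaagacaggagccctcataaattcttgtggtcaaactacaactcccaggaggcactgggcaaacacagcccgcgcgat
Ppm1k: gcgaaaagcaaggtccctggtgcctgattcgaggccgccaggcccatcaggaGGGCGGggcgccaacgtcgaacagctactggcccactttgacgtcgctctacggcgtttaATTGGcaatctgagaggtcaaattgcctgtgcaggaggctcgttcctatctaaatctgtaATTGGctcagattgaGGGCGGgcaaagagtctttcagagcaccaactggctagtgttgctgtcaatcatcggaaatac
The Bckdk stretch held 1 CCAAT match, whereas the Ppm1k stretch held 2 GC box matches and 2 CCAAT matches. Motifs were searched on both strands, the CCAAT box by its own letters, the GC box as GGGCGG and the element of estrogen-related receptors as AAGGTCA, in RefSeq windows from 250 bases before to 50 bases after the start. Windows were found for 9 of the 10 members. A member was counted if any of its windows matched, and the 9 members had 11 windows. CCAAT occurred for 7 of these 9 members, in 8 of their 11 windows, and in 37.4% of all 32851 windows. The GC box occurred for 4 of the 9, in 4 of the 11 windows, and in 35.7% of all windows. AAGGTCA occurred for 0 of the 9 and in 4.72% of all windows. The motifs could overlap one another where their letters allow.

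Ivd and Mccc1 act in series in leucine breakdown. Ivd (ENSMUSG00000027332, chr2:118861954-118882909, plus strand), isovaleryl-CoA dehydrogenase, was at 339.9, 379.8, 375 and 349 CPM in AAV9-GFP sham and 256, 205, 256 and 269 CPM in AAV9-GFP TAC hearts. The groups were far apart, with a log2 fold change of -0.55 (SE 0.09, adjusted p = 5.90e-04). In AAV9-Cardinal hearts Ivd was at 329, 323, 358 and 369 CPM after sham and 261, 338, 316 and 314 CPM after TAC, overlapping, with a log2 fold change of -0.17 (SE 0.09, adjusted p = 0.285). Mccc1 (ENSMUSG00000027709, chr3:35959312-36000678, minus strand), the biotin-carrying subunit of methylcrotonyl-CoA carboxylase, was at 96.8, 87.5, 85.9 and 90.6 CPM in AAV9-GFP sham and 64.0, 56.7, 65.1 and 65.2 CPM in AAV9-GFP TAC hearts. No TAC heart came near a sham heart, and the log2 fold change of -0.52 (SE 0.06) had the smallest adjusted p of the set, 8.60e-05. In AAV9-Cardinal hearts Mccc1 was at 82.9, 84.9, 89.5 and 91.3 CPM after sham and 68.4, 81.1, 81.5 and 79.7 CPM after TAC. These were apart by a smaller margin, with a log2 fold change of -0.17 (SE 0.06, adjusted p = 0.141). Genes on the opposite strand cover 5.60% of the exon bases of Mccc1.

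Hibadh (ENSMUSG00000029776, chr6:52546228-52640389, minus strand), 3-hydroxyisobutyrate dehydrogenase, belongs to the valine branch. It was at 179, 185, 199 and 188 CPM in AAV9-GFP sham and 155, 154, 164 and 153 CPM in AAV9-GFP TAC hearts, with a log2 fold change of -0.26 (SE 0.05, adjusted p = 0.00410). The 3 lowest of those TAC hearts lay within a very narrow band below the shams. In AAV9-Cardinal hearts Hibadh was at 173, 189, 189 and 179 CPM after sham and 157, 186, 181 and 173 CPM after TAC, which overlapped, with a log2 fold change of -0.07 (SE 0.05, adjusted p = 0.527).

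**Figure D3:**
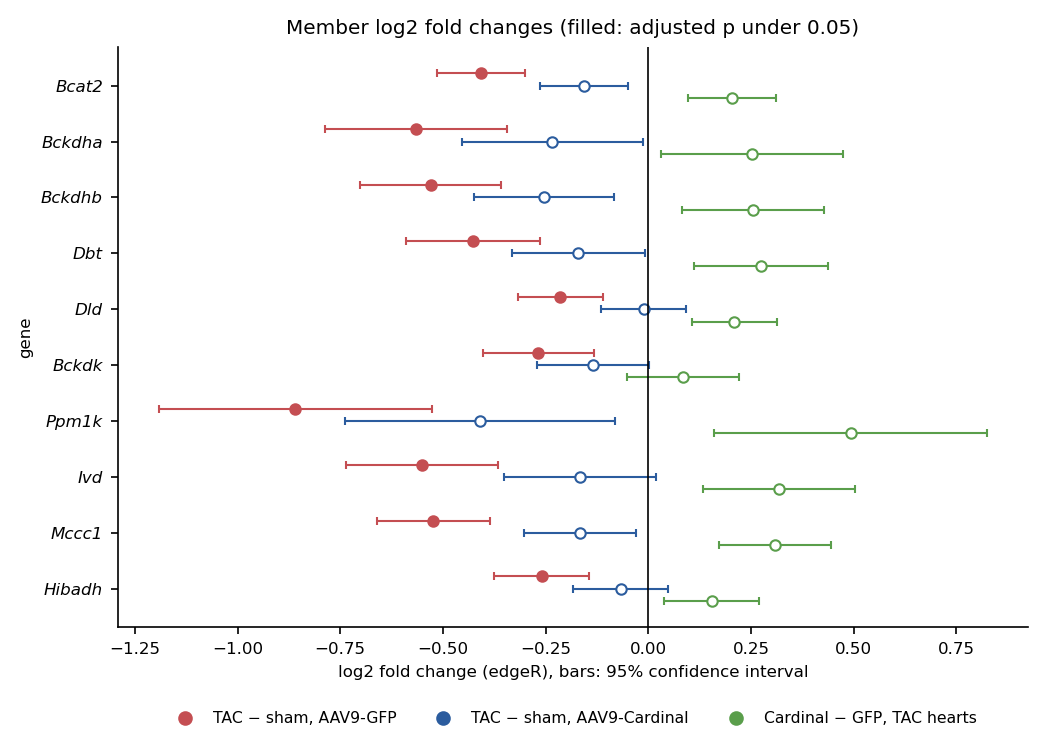
Log2 fold change (horizontal axis) with its 95% confidence interval for each of the 10 genes (vertical axis) in 3 comparisons, filled where the adjusted p was under 0.05. All 10 values for TAC against sham with AAV9-GFP are filled and below 0, whereas none of the other comparisons is filled. Scaled to cardiomyocyte markers, Dld turned to 0.02 with AAV9-GFP and 0.01 with AAV9-Cardinal, and Bckdk and Hibadh turned to -0.12 and -0.05 between viruses. With library totals alone Dld turned to 0.02 with AAV9-Cardinal, and Bckdk to -0.01 between viruses.

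In AAV9-Cardinal hearts, then, TAC gave log2 fold changes from -0.41 to -0.01 with a median of -0.17 (-0.11 without replicate 1 of the TAC group, where Dld was at 0.03, Hibadh at -0.02 and Ivd at -0.09), and 0 of 10 members were called lower by edgeR, where 3.38% of all genes were called lower and 6.48% in either direction. Of the 10, 6 had an unadjusted p under 0.05, against 21.8% of all genes. The hearts of the 2 groups did not overlap for 5 members (Bcat2, Bckdhb, Bckdk, Ppm1k and Mccc1, all lower after TAC), against 7.21% of all genes. Averaged over both viruses, all 10 members fell after TAC, where 11.8% of all genes did, with log2 fold changes from -0.63 to -0.11, except that Dld was at 0.02 when scaled to cardiomyocyte markers. By that scaling 7 of 10 fell, where 4.63% of all genes did, and with library totals alone 7 of 10 fell, where 6.29% did. Dld, Bckdk and Hibadh were not called in either. In this average 9 members, all but Dld, were called lower without AAV9-GFP TAC replicate 3 or replicate 7. The same 9 were called without AAV9-GFP sham replicate 4 or without AAV9-Cardinal TAC replicate 1. In these fits 9.91% to 11.9% of all genes were called lower.

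The members were then compared between viruses within each surgery, to compare hearts that carried Cardinal with those that carried GFP. In sham hearts log2 fold changes of AAV9-Cardinal against AAV9-GFP ran from -0.08 for Bckdha to 0.04 for Ppm1k, and for every member the groups overlapped. In edgeR 0 of 10 members were called, where 0.0119% of all genes were, 0 had an unadjusted p under 0.05, and DESeq2 called 0. The intervals still allowed differences, from the narrowest, -0.10 to 0.11 for Dld, to the widest, -0.28 to 0.37 for Ppm1k.

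In TAC hearts all 10 members had higher means with AAV9-Cardinal than with AAV9-GFP. The log2 fold changes ran from 0.08 for Bckdk to 0.49 for Ppm1k, with a median of 0.25 against -0.01 for all genes, though Bckdk was at -0.12 and Hibadh at -0.05 when scaled to cardiomyocyte markers and Bckdk at -0.01 with library totals alone. By edgeR 0 of 10 were called, where 0.101% of all genes were. Of the 10, 9 had an unadjusted p under 0.05 (all but Bckdk), against 14.997% of all genes, and the adjusted p ran from 0.0611 for Mccc1 to 0.587 for Bckdk. DESeq2 called 6 of 10 (Bcat2, Dbt, Dld, Ppm1k, Ivd and Mccc1), where it called 2.54% of all genes. The AAV9-Cardinal hearts were all above the AAV9-GFP hearts for 3 members, Dbt, Dld and Mccc1, against 3.58% of all genes. For Ppm1k, 3 of the 4 AAV9-Cardinal TAC hearts exceeded the highest AAV9-GFP TAC heart, and the interval was 0.16 to 0.82.

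The count of called members changed when 1 heart was left out. Without AAV9-Cardinal TAC replicate 1, edgeR called 6 of 10 members higher with AAV9-Cardinal (Bcat2, Bckdhb, Dld, Ivd, Mccc1 and Hibadh), where it called 3.13% of all genes, and the median log2 fold change was 0.30. Without AAV9-GFP TAC replicate 4 it called 1 member, Dld, where it called 0.463% of all genes. Replicate 1 was the heart with the most Cardinal and the most Postn of its group, and what part either had in its low member levels was not tested.

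The difference between the TAC responses of the 2 virus groups was tested directly, over the same 16 hearts. The TAC response was less negative with AAV9-Cardinal for all 10 members, by a log2 value of 0.13 (Bckdk) to 0.45 (Ppm1k), except that Dld, Bckdk and Hibadh were at -0.01, -0.08 and -0.02 when scaled to cardiomyocyte markers. For the member with the lowest unadjusted p, Mccc1, the difference was 0.36 (SE 0.09). By edgeR 0 of 10 passed (0.0119% of all genes), with adjusted p from 0.302 to 0.639, while 8 had an unadjusted p under 0.05, against 10.2% of all genes. DESeq2 called 3 (Bcat2, Ivd and Mccc1), where it called 0.813% of all genes, and edgeR called 2 (Bcat2 and Mccc1) without AAV9-Cardinal TAC replicate 1, where it called 0.463% of all genes. A called fall with AAV9-GFP and none with AAV9-Cardinal therefore does not show that the responses differ.

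**Figure D4:**
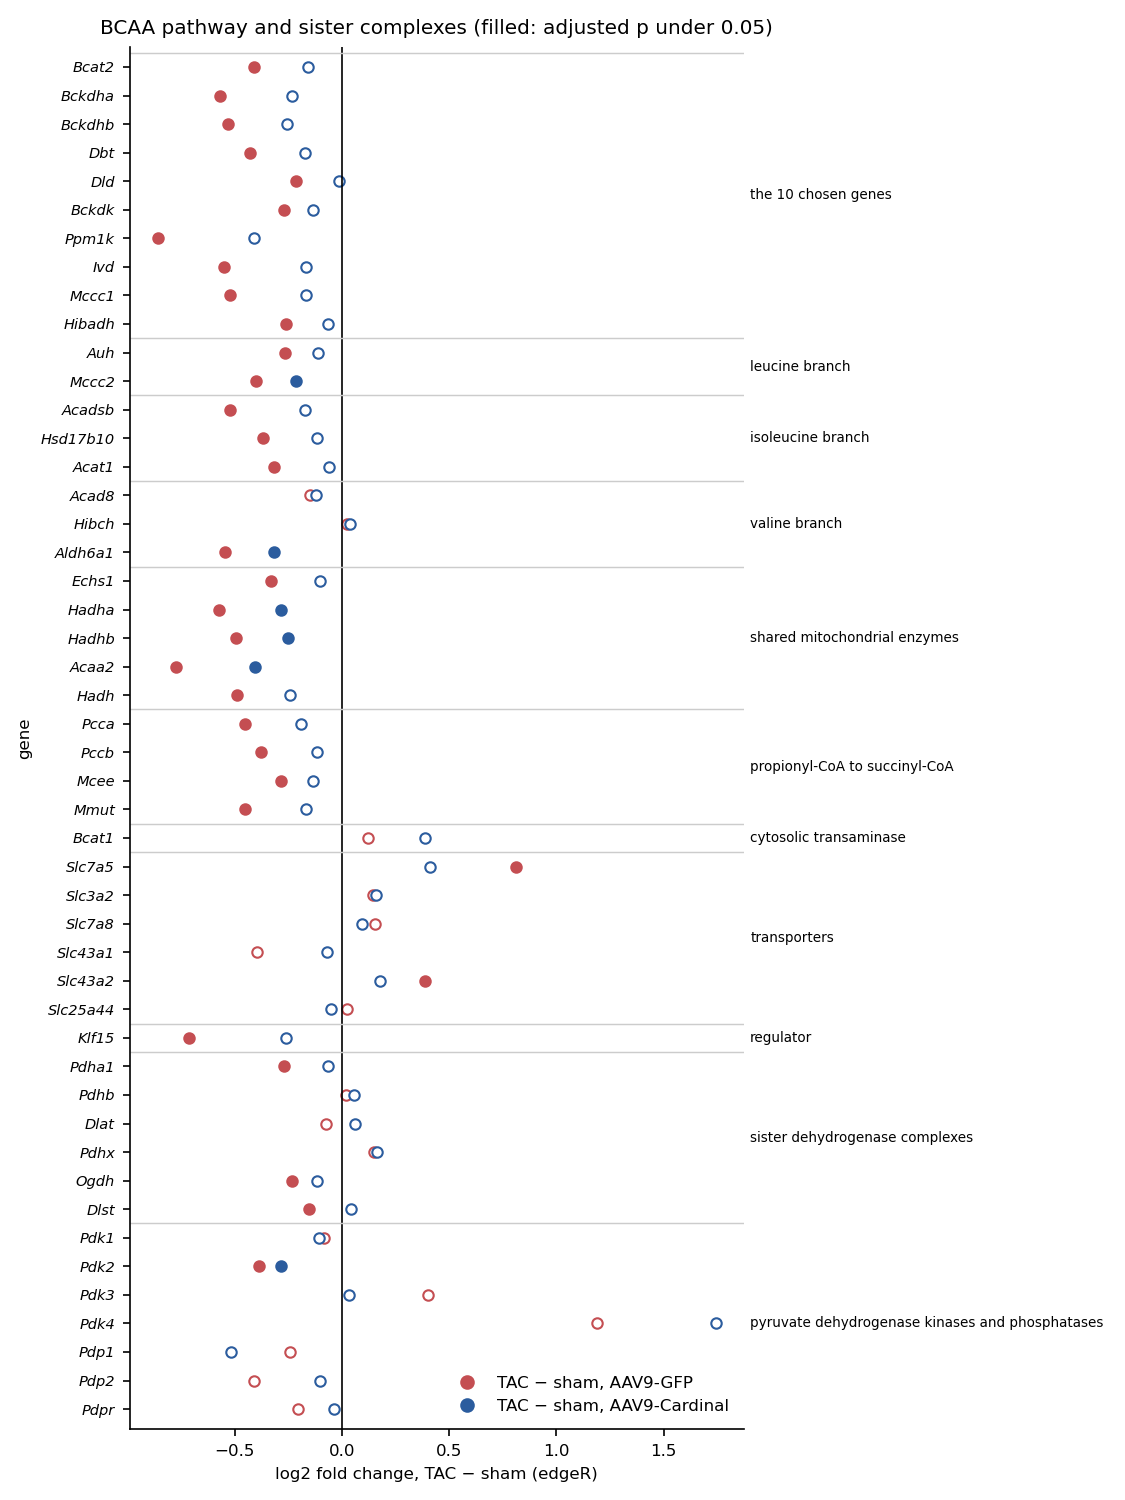
Log2 fold change for TAC against sham (horizontal axis) with AAV9-GFP and with AAV9-Cardinal for the 10 genes and other genes of the pathway, its transporters and the sister complexes (vertical axis, grouped as labelled), filled where the adjusted p was under 0.05. Filled AAV9-GFP points of the enzymes all lie below 0, whereas Slc7a5 and Slc43a2 lie above 0. Scaled to cardiomyocyte markers, Acad8, Dlst, Dlat, Pdk1 and Pdpr turned above 0 with AAV9-GFP (0.09, 0.08, 0.16, 0.16 and 0.02). Dld crosses 0 when scaled to cardiomyocyte markers (0.02 and 0.01) and, with AAV9-Cardinal, with library totals alone (0.02).

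The rest of the pathway was read from a list of 18 further enzymes, of which 15 fell with TAC in AAV9-GFP hearts and 0 rose, with a median log2 fold change of -0.39. In that fit 8.92% of all genes were called lower. Without AAV9-GFP TAC replicate 3 the count of lower enzymes was 14, where 5.97% of all genes were called lower. Scaled to the cardiomyocyte markers 9 fell and 1, Hibch, rose, with a median of -0.15. By that scaling 2.69% of all genes were called lower and 34.8% in either direction. With library totals alone 13 fell and Hibch rose, where 4.04% of all genes were called lower and 29.1% in either direction. The 5 mitochondrial enzymes shared with fatty acid oxidation all fell, led by the thiolase Acaa2 at -0.77 (SE 0.08, adjusted p = 2.76e-05) and the trifunctional protein subunit Hadha at -0.57 (SE 0.06, adjusted p = 2.75e-05). All 4 genes that carry propionyl-CoA to succinyl-CoA fell, with a median of -0.41, as did all 3 of the isoleucine branch, including the acyl-CoA dehydrogenase Acadsb at -0.52 (SE 0.07, adjusted p = 2.06e-04). Among 3 further leucine enzymes 2 fell, and among 3 further valine enzymes 1 did, Aldh6a1, the methylmalonate semialdehyde dehydrogenase, at -0.55 (SE 0.07, adjusted p = 1.39e-04). Hibch, the hydrolase just before Hibadh in the valine branch and named here after its values were seen, had a log2 fold change of 0.02 (SE 0.04, adjusted p = 0.764). In AAV9-Cardinal hearts, where 3.38% of all genes were called lower, 5 of the 18 fell and 0 rose. They were Acaa2 (-0.40), Aldh6a1 (-0.31), Hadha (-0.29), Hadhb (-0.25) and Mccc2 (-0.22, adjusted p = 0.0470), the partner subunit of Mccc1, of which Mccc2 was named after its values were seen. Acaa2, Hadha and Hadhb are among the enzymes shared with fatty acid oxidation. The count of 5 was 2 without AAV9-Cardinal sham replicate 2 or without AAV9-Cardinal TAC replicate 6. It was 3 without AAV9-Cardinal sham replicate 3, sham replicate 4 or TAC replicate 5, and 3 when scaled to the cardiomyocyte markers. In these fits 1.09% to 2.56% of all genes were called lower. It was 4 in several other fits, among them that without AAV9-Cardinal TAC replicate 1, where 4.64% of all genes were called lower. Between the viruses in TAC hearts 0 of the 18 were called by edgeR with all mice, where 0.101% of all genes were. Without AAV9-Cardinal TAC replicate 1, 12 of the 18 were called higher with AAV9-Cardinal, where 3.13% of all genes were called in either direction. The median log2 fold change was then 0.28 against 0.23 with all mice. Without AAV9-GFP TAC replicate 4 the count was 2, where 0.463% of all genes were called. The difference in TAC response was called for 0 of the 18 (0.0119% of all genes), and for 3 without AAV9-Cardinal TAC replicate 1 (0.463% of all genes).

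Klf15, a transcription factor known to drive BCAA breakdown genes in heart and muscle, was at 47.6, 42.5, 46.3 and 43.9 CPM in AAV9-GFP sham and 27.5, 20.9, 35.8 and 25.7 CPM in AAV9-GFP TAC hearts. Every TAC heart was below every sham heart, and it fell by a log2 fold change of -0.71 (SE 0.15, adjusted p = 0.00427). In AAV9-Cardinal hearts it was at 41.5, 46.3, 46.6 and 47.0 CPM after sham and 32.8, 48.5, 40.2 and 29.7 CPM after TAC. There the TAC hearts spread widely and 1 exceeded all shams, with a log2 fold change of -0.26 (SE 0.15, adjusted p = 0.333). Of 6 amino acid transporters 2 rose and 0 fell with TAC in AAV9-GFP hearts, where 17.4% of all genes were called in either direction. With TMM scaling Slc7a5, the light chain of the plasma membrane carrier for large neutral amino acids, was at 0.81 (SE 0.16, adjusted p = 0.00256). Slc43a2, another carrier of this kind, was at 0.39 (SE 0.12, adjusted p = 0.0341). Scaled to cardiomyocyte markers or by library totals alone 3 rose, Slc3a2 with them, where 34.8% and 29.1% of all genes were called in either direction. In AAV9-Cardinal hearts 0 of 6 were called. The cytosolic transaminase Bcat1, named after its values were seen, had a log2 fold change of 0.12 (SE 0.30, adjusted p = 0.843).

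The pyruvate and 2-oxoglutarate dehydrogenase complexes are built like the branched-chain complex and share its Dld subunit. Of their 6 other subunits 3 fell with TAC in AAV9-GFP hearts and 0 rose, where 8.92% of all genes were called lower and 17.4% in either direction. The median was -0.11, and among the 3 was Pdha1 (named after its values were seen) at -0.27 (SE 0.05, adjusted p = 0.00117). Scaled to cardiomyocyte markers 0 fell and 2 rose (Pdhb and Pdhx), where 34.8% of all genes were called and 2.69% were called lower. By library totals Pdha1 alone fell and Pdhb and Pdhx rose, where 29.1% of all genes were called and 4.04% were called lower. Most genes called under these 2 scalings were thus called higher. In AAV9-Cardinal hearts 0 of the 6 were called, where 6.48% of all genes were. Of the 7 kinases and phosphatases of pyruvate dehydrogenase, Pdk2 fell in AAV9-GFP hearts and in AAV9-Cardinal hearts, at -0.38 (SE 0.07, adjusted p = 0.00106) and -0.28 (SE 0.07, adjusted p = 0.0215), and scaled to cardiomyocyte markers it was at -0.15 in AAV9-GFP hearts and not called. Averaged over both viruses Pdk4 rose, at 1.47 (SE 0.40, adjusted p = 0.0159), as did the pyruvate dehydrogenase subunit Pdhx at 0.16 (SE 0.04, adjusted p = 0.00866).

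Levels were compared between members per kilobase of annotated exon (the union over transcripts, so a gene with long alternative exons is understated). In AAV9-GFP sham hearts Bckdha and Dld were highest, at 105 ± 14.2 and 94.3 ± 4.08 CPM per kilobase (SD, n = 4), and their hearts overlapped. Ivd followed at 65.6 ± 3.51 CPM per kilobase, apart from its neighbours. The next group was much lower, with Bckdhb at 20.6, Dbt at 20.3, Hibadh at 18.4, Bcat2 at 16.9 and Bckdk at 16.1 CPM per kilobase. In this order the ranges of neighbouring genes overlapped except between Hibadh and Bcat2. Ppm1k at 12.5 ± 1.84 CPM per kilobase overlapped with Bckdk, and Mccc1 was lowest at 8.23 ± 0.44 CPM per kilobase.

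Markers of some heart cell types moved with the same contrast. The 7 cardiomyocyte markers (highest Myh6, lowest Ryr2) summed to 39901 to 43460 CPM in AAV9-GFP sham and 31431 to 37946 CPM in AAV9-GFP TAC hearts, and 5 of the 7 fell. In AAV9-Cardinal hearts they summed to 38597 to 42928 CPM after sham and 37194 to 41898 CPM after TAC, with 0 of 7 lower and 1 higher. The 6 fibroblast markers (highest Dcn, lowest Pdgfra) summed to 490.0 to 551 CPM in AAV9-GFP sham, 855 to 1105 CPM in AAV9-GFP TAC, 477 to 526 CPM in AAV9-Cardinal sham and 497 to 928 CPM in AAV9-Cardinal TAC hearts, with 4 of 6 higher with AAV9-GFP and 1 of 6 with AAV9-Cardinal. Of the 5 endothelial markers (highest Cdh5, lowest Tek) 1 rose in AAV9-GFP hearts, from sums of 415 to 507 CPM to sums of 484 to 569 CPM. Of the 3 smooth muscle markers (highest Myh11, lowest Cnn1) 1 rose, though the sums were 29.9 to 33.8 CPM in AAV9-GFP sham and 29.0 to 33.4 CPM in AAV9-GFP TAC hearts. For the 5 macrophage and leukocyte markers (highest C1qa, lowest Adgre1) the count was 0, at sums of 65.9 to 79.6 CPM in AAV9-GFP sham and 76.2 to 85.4 CPM in AAV9-GFP TAC hearts. Markers of fat cells (highest Adipoq, with Ucp1 at 0 in every heart) and liver (highest Ttr, with Alb and Apoa1 at 0 in every heart) summed to at most 0.796 and 0.372 CPM, and the 3 atrial markers (highest Myl4, lowest Sln) to at most 2.40 CPM.

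Since cardiomyocyte markers and members were lower in the same hearts, the members were also scaled to the summed marker counts. That sum weighs each marker by its counts, Myh6 most, and the 7 did not move alike. Their log2 fold changes ran from -0.53 to 0.20 with AAV9-GFP, and 3 were lower and 2 higher in the average over both viruses. The sum is therefore not a plain measure of cardiomyocyte content. By that scale 6 of 10 members fell with TAC in AAV9-GFP hearts (Bcat2, Bckdha, Bckdhb, Ppm1k, Ivd and Mccc1), where edgeR called 2.69% of all genes lower and 34.8% in either direction, and the log2 fold changes were -0.64 for Ppm1k, -0.03 for Bckdk, -0.02 for Hibadh and 0.02 for Dld. With library totals alone 7 of 10 fell, the same 6 and Dbt, where 4.04% of all genes were called lower and 29.1% in either direction. These scalings moved the median of all genes by 0.23 and 0.16 in that comparison. Relative to the median of all genes the median of the members was -0.48 by TMM, -0.48 by library totals and -0.48 by the markers, and all 10 lay below it each time. In AAV9-Cardinal hearts the same quantity was -0.17 by each of the 3 scalings. A change of scaling shifts all genes by nearly the same amount. These relative values could therefore hardly differ between scalings, and their likeness is no separate support. In bulk RNA, fewer cardiomyocytes and less of an mRNA in each cardiomyocyte cannot be told apart.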

How the data were processed

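The authors deposited a table of raw counts per gene, made from reads checked with FastQC and aligned with HISAT2 2.1.0 to GRCm38; their notes also name edgeR 3.26.1. The counting program, annotation and strand setting were not given in the sources used here. All 16 sample columns were used. Genes were named from GENCODE M21, which matched 55480 of 55573 IDs, and promoter sequences were taken from RefSeq.

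Counts were filtered (filterByExpr), scaled by TMM and fitted with edgeR 4.0.16 (R 4.3.3) as 1 quasi-likelihood model over the 4 groups, with Benjamini-Hochberg adjustment over 16857 genes and a threshold of 0.05. The common biological coefficient of variation was 0.128. Log2 CPM used a prior count of 2. The Bckdk to Ppm1k ratio was tested by exact permutation. Scripts were tested on simulated data. DESeq2 1.42.0, other scalings, filters, a replicate block and each mouse left out were the alternatives, and scaling to markers or to library totals alone was chosen after seeing the data.

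The members and gene lists were chosen with earlier results of these data known. One listed enzyme is counted in its list but is not reported here by name. The text names all 10 members, at most 5 other listed genes called in each direction of a comparison by size of change, and the highest and lowest gene of each marker list. Confidence intervals of log2 fold changes came from the quasi-likelihood fit and include the spread between mice. Replicates of a group differed by more than sampling noise (chi-square per degree of freedom 5.49 to 16.4 over 24 pairs). The edgeR p-values weigh a difference against the spread between these mice, and the exact permutation p ranks a difference among the labelings of the mice.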

Additional observations from a re-analysis of the deposited data

Results flagged for a closer look

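In 5 of 48 groups of 4 hearts that were examined, 1 heart lay far from the other 3, where chance gives about 1 in 20 groups, or 2.40 of 48. For Ppm1k it was AAV9-GFP sham replicate 1, with 91.8 CPM against 67.9 to 71.8 CPM. Mccc1 was at 56.7 CPM in AAV9-GFP TAC replicate 3, against 64.0 to 65.2 CPM, and at 68.4 CPM in AAV9-Cardinal TAC replicate 1, against 79.7 to 81.5 CPM. Hibadh was at 164 CPM in AAV9-GFP TAC replicate 4, against 153 to 155 CPM. The library of AAV9-Cardinal sham replicate 4 held 16441997 reads, against 21603910 to 21786630 in the rest of its group.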

How the results depend on the processing

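All 10 members fell with TAC in AAV9-GFP hearts under DESeq2, RLE and upper-quartile factors, both other filters, the robust fit, without mitochondrial genes, with the 8 mice alone, with the replicate block and with each mouse left out (10 in each of 16 fits). In these fits 4.2% to 9.97% of all genes were called lower. The exceptions were library totals alone (7 members, 4.04% of all genes lower) and scaling to the 7 cardiomyocyte markers (6 members, 2.69% of all genes lower). Deviations of same-numbered mice had a median r of 0.05 (-0.04 to 0.21, 4 of 16 pairs above 0.1), against -0.01 for mice of different number (4 of 80 pairs above 0.1). The 6 pairs of replicate 1 were all positive (0.0671 to 0.211), and 5 of 16 mice correlated best with their own number. Since not every pair was above 0.1 and the labels name no shared batch, the numbers were not taken as pairing. The block moved the genes called with TAC in AAV9-Cardinal hearts from 1092 to 31 of 16857. Numbers 5 and 6 occur only in the AAV9-Cardinal TAC group and number 7 only in the AAV9-GFP TAC group. The block therefore takes up those mice whole and leaves AAV9-Cardinal TAC replicates 1 and 4 to carry that group. With the replicate block 8 members were called lower in the average over viruses, where 6.35% of all genes were. Scaled to the markers or by library totals it was 7, where 4.63% and 6.29% were called lower. The block called 10 members lower with TAC in AAV9-GFP hearts (6.54% of all genes). It called 0 with TAC in AAV9-Cardinal hearts (0.184% of all genes) and 0 between the viruses in TAC hearts (0% of all genes). Between the viruses in sham hearts and in the difference in response it called 0 (0.00593% of all genes in each). A count of 0 members where almost no gene was called is no result about the members. In AAV9-Cardinal hearts DESeq2 called 1 member (Bckdhb, 8.12% of all genes) and the fit of the 8 mice compared called 1 (Ppm1k, 5.54% of all genes), against 0. Between the viruses in TAC hearts DESeq2 called 6 (2.54% of all genes), and in the difference in response it called 3 (0.813%). With a mouse left out the members called ran from 0 to 1 with TAC in AAV9-Cardinal hearts, where 2.25% to 8.41% of all genes were called. They ran from 0 to 6 between viruses in TAC hearts (0% to 3.13% of all genes) and from 0 to 2 in the difference in response (0.0117% to 0.463%). In the average 9 to 10 were called, where 9.91% to 12.5% of all genes were called lower. The cause of these changes was not tested. Some log2 fold changes turned direction. By TMM Dld had been at -0.21 for TAC with AAV9-GFP. Bckdk had been at 0.08 between the viruses in TAC hearts and at 0.13 in the difference in response. Scaled to the markers, Dld was at 0.0217, 0.00896 and 0.0153 for TAC with AAV9-GFP, with AAV9-Cardinal and averaged. Between the viruses in TAC hearts Bckdk was at -0.116 and Hibadh at -0.0475, and in the difference in response Dld was at -0.0127, Bckdk at -0.0808 and Hibadh at -0.0248. With library totals alone Dld was at 0.0236 for TAC with AAV9-Cardinal, Bckdk at -0.00735 between viruses in TAC hearts and Bckdhb at 0.0120 between viruses in sham hearts, where Dld was at -0.000231 with no filter. With a mouse left out, the sham comparison ran from -0.0507 to 0.0132 for Bckdhb, from -0.0208 to 0.0952 for Dbt, from -0.0215 to 0.0287 for Dld and from -0.0109 to 0.152 for Ppm1k, and Dld ran from -0.0298 to 0.0276 for TAC with AAV9-Cardinal. The Bckdk to Ppm1k ratio difference with AAV9-GFP ran from 0.50 to 0.77 with a mouse left out, with unadjusted exact permutation p from 0.0286 to 0.114 by the size of the difference (0.0286 to 0.20 with AAV9-Cardinal), a two-sided count chosen after seeing the data. With 4 mice a group and a common coefficient of variation of 0.128, small differences between viruses could be missed.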
